A study of Mus musculus with 22 samples.

Results

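The Sox, Fox, Pax and brain homeobox genes encode DNA-binding transcription factors that divide the early neural tube into regions. The members described here were all array probes whose single gene symbol began with one of the family stems Sox, Fox, Pax, Dlx, Lhx, Nkx, Irx, Otx, Emx, Gbx, Msx, Pitx and that of Six2, followed by a number (for Fox, a letter and a number), apart from Sox2, Sox11 and Nkx2-5. They numbered 80 of the 10500 probes of the array, 1 probe for each of 80 genes of the 9230 annotated, and the rule reads gene symbols alone, not measured values. Of these, 65 passed the filter on dim probes and were tested. The probe annotated as Dlx6os2, a non-coding transcript of the Dlx5 and Dlx6 locus, came in by its symbol and encodes no factor.

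The anterior neural tubes of mouse embryos were profiled on 22 one-colour CodeLink arrays. The arsenic dams received intraperitoneal sodium arsenate at 9.6 mg arsenic per kg on gestational day (GD) 7 and again on GD8, each time at hour 12, and the control dams received water at 10 µL per g on the same schedule. All embryos of both arms lacked Folr2, a gene for a membrane folate-binding protein, so every value belongs to the knockout background. Collection followed the second injection by 3 h (GD8:15), by 12 h (GD9:00) or by 24 h (GD9:12). The earliest stage had 4 arsenic and 4 control arrays, GD9:00 had 3 arsenic and 4 control arrays, and GD9:12 had 4 arsenic and 3 control arrays.

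Sox factors bind DNA through an HMG box, Fox factors through a forkhead domain, Pax factors through a paired domain, and the other families through a homeodomain. In the closing neural tube, Otx2 marks the forebrain and midbrain, Nkx2 genes and Foxa2 mark the ventral side under Sonic hedgehog signalling, and Pax3 and Msx genes mark the dorsal side under BMP and Wnt signalling. Others of these genes, such as Six2, Foxc1 and Sox17, are used mainly in head mesenchyme, vessels or endoderm that lie beside the neural tube.

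Otx2 and Sox4 were the only members that differed in both successive stage steps in both arms, and the 250 bases before their start sites are shown for that reason. Both sequences are from RefSeq on GRCm38.p6 and lie on the minus strand, Otx2 at chr14:48667645-48667894 and Sox4 at chr13:28953700-28953949, and they are printed 5′ to 3′ towards the start. RefSeq lists 4 starts for Otx2, of which the farthest upstream was used, and 1 start for Sox4. Capitals mark matches, on either strand, to the CCAAT box, to the TATA box motif TATAAA, or to the homeodomain core motif TAATTA. The stretches spelled ATTGG are matches to the first of these on the other strand.
Otx2: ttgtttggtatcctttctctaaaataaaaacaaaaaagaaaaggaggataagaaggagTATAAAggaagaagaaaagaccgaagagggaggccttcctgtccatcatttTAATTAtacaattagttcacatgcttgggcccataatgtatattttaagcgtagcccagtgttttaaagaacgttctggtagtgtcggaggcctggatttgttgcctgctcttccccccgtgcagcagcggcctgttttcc
Sox4: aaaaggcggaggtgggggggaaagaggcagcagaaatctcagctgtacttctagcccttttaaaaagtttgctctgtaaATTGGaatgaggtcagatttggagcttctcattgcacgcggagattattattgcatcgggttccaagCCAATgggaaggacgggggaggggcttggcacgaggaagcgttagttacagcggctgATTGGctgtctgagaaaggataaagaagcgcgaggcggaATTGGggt

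The pair of windows shared no marked motif. The Sox4 window held 4 CCAAT matches and no TATAAA or TAATTA, whereas the Otx2 window held 1 TATAAA, 1 TAATTA and no CCAAT. Of 27026 RefSeq windows of the same length, 34.5% held CCAAT, 13% held TATAAA and 4.91% held TAATTA. Among the 47 tested members with a window these shares were 55.3%, 6.38% and 4.26%. Also searched on both strands were the GC box motif GGGCGG, the Sox-like motif ACAATG and the Otx-like motif TAATCC, which had 0 matches in either window. The E-box motif CANNTG had 1 match in each, against 66.1% of all windows. No marked match overlapped another. The Otx2 window was 42.0% G and C and the Sox4 window 50.8%, against a median of 52.0% over all windows. A match describes letters only, and no binding was measured.

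The array medians of the deposited intensities lay between 123 and 291, and the mean correlation of an array with the others of its group lay between 0.870 and 0.971 across probes. The array's own limits touch every value below. Where a gene had 2 tested probes (92 genes), their values correlated with a median r of 0.0489 over the arrays, so it is in doubt whether each probe reports its annotated gene. On 4 arrays, between 9.52% and 15.7% of probes lay in stretches of consecutive probe numbers with low signal, called low runs: control GD9:00 replicates 1, 2 and 4 and arsenic GD8:15 replicate 4. The authors scaled the arrays of each stage to a different mean, so stage and scaling cannot be told apart in the deposited values, and quantile normalisation was applied before the tests. In dissected tissue, fewer cells of a type and less RNA per cell cannot be told apart.

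Markers of the labelled tissue gave signal: 9 of 10 listed neural tube genes passed the filter, as did 7830 of 10500 probes. Passing the filter does not single out neural tissue. The summed normalised intensity of these genes ran from 2778 to 8158 in arsenic arrays and from 2927 to 6752 in control arrays. After quantile normalisation 8 of the 9 were lower in arsenic embryos at GD8:15, 6 at GD9:00 and 6 at GD9:12, with 0 calls. Folr2 lay below the filter in all groups, with mean log2 intensities of 6.85 to 7.15. Heart and muscle markers also gave signal, and at GD8:15 their summed intensity over 10 of 16 listed genes was 7297 to 15230 in the arsenic arrays, against 20518 to 38669 in the control arrays, with no overlap. Xist and Eif2s3y, which were chosen after their values were seen and follow the sex of the embryo, also moved with arm and stage. At GD8:15 Xist had log2 intensities of 7.86 to 9.06 in arsenic and 7.02 to 7.10 in control arrays, and Eif2s3y had 7.11 to 7.30 in arsenic and 7.66 to 7.79 in control arrays. At GD9:00 Xist had 9.77 to 10.35 in arsenic and 7.10 to 8.71 in control arrays, again with no overlap, while Eif2s3y overlapped at 7.01 to 7.18 in arsenic and 7.06 to 7.89 in control arrays. At GD9:12 Xist had 6.93 to 7.15 in arsenic and 6.88 to 11.34 in control arrays, so its 3 stages did not overlap in arsenic embryos. The part of these shifts in the members' arsenic and stage differences was not tested.

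Arsenic against water was the comparison the study was built on. None of the 65 tested members passed the threshold between the arms at any stage, on average over the stages, or in the change of the arsenic difference between stages (limma with Benjamini-Hochberg adjustment over 7830 probes, threshold 0.05 throughout). The percentage of all probes past that threshold was 0 in each of these tests, so the members' count of 0 equals the background. The lowest adjusted p of a member was 0.604, 0.245 and 1.00 at the 3 stages in order, 0.864 for the average and 0.692 for the change between stages. At an unadjusted threshold of 0.05, limma gave 3 members at GD8:15 (4.62%, against 7.29% of all probes), 4 at GD9:00 (6.15%, against 12.6%) and 1 at GD9:12 (1.54%, against 1.28%). It gave 2 for the average (3.08%, against 5.72%) and 2 for the change between stages (3.08%, against 6.42%).

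The size of a difference that the arrays could have hidden was set by the spread between them. The median standard error of a member's arsenic difference was 0.24 on the log2 scale at GD8:15 and 0.26 at the later stages. The 95% interval stayed within a 2-fold change in either direction for 49 of 65 members at GD8:15, 48 at GD9:00 and 52 at GD9:12, and for 64 on average over the stages. It stayed within 1.5-fold for 29, 29 and 30 members at the 3 stages and for 51 on average. Foxi1, a forkhead gene of ectodermal placodes and the inner ear, had the widest interval at each stage, with a standard error of 0.57 at GD8:15 and 0.62 later.

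**Figure D1:**
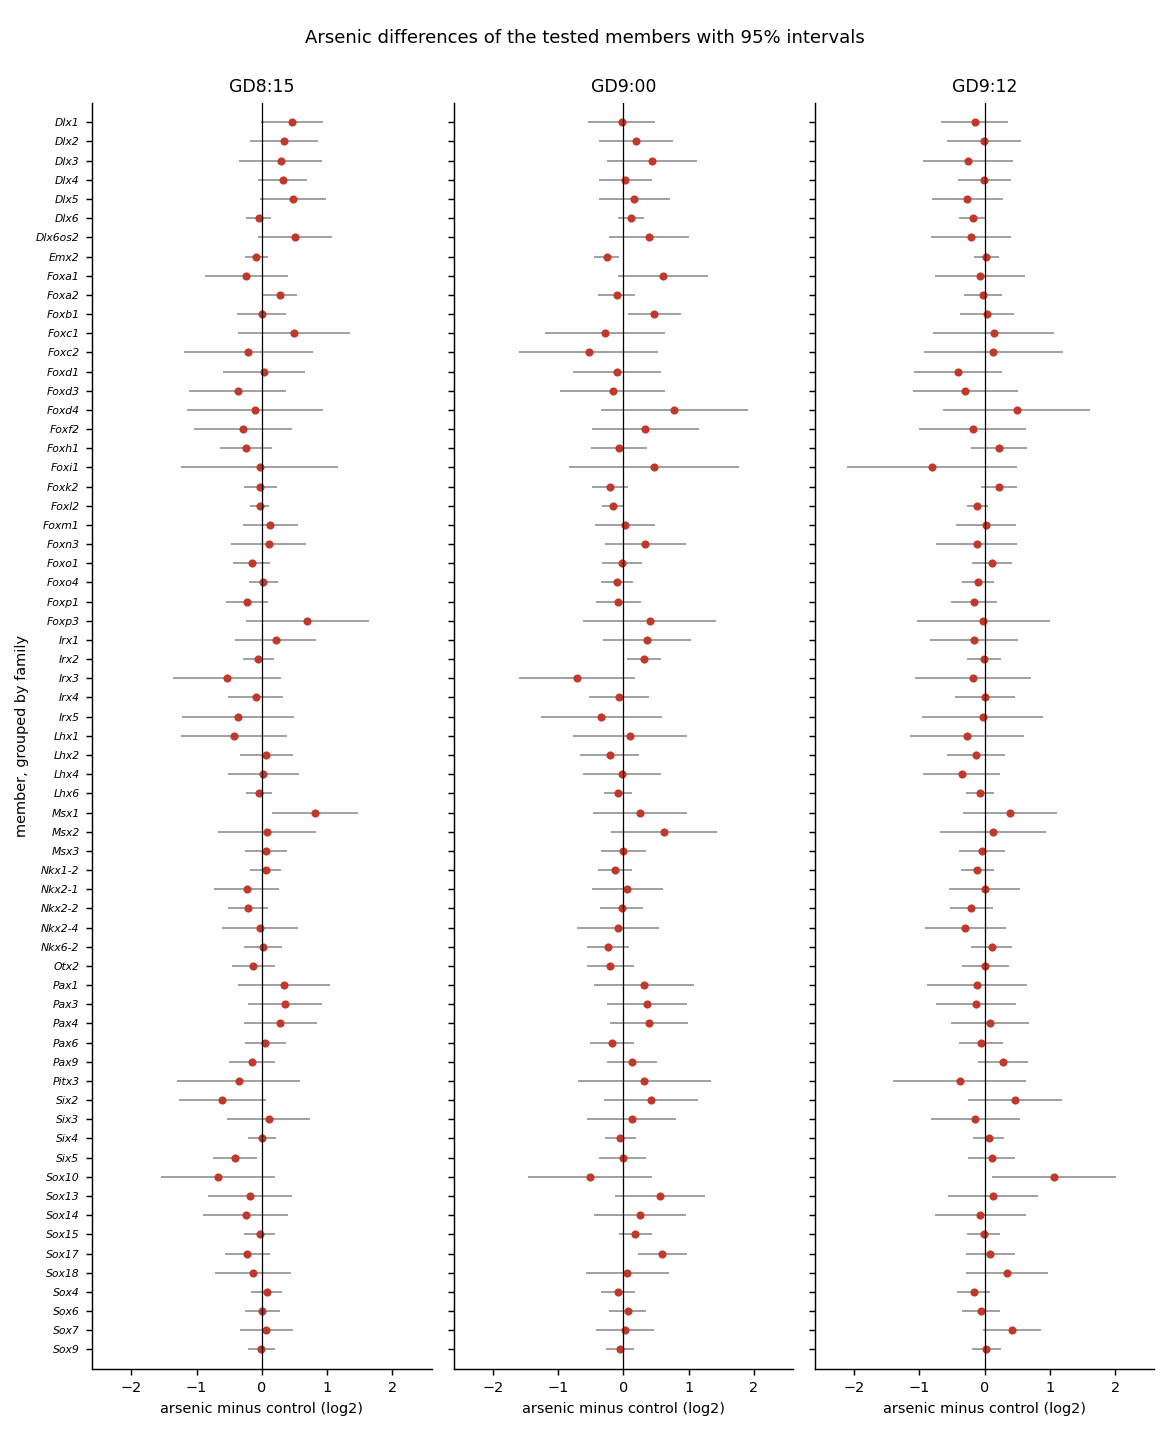
Arsenic minus control differences (log2, x axis) of the 65 tested members, grouped by family down the page, with 95% confidence intervals from limma at GD8:15, GD9:00 and GD9:12. Most intervals cross 0 at every stage, and the few that do not, such as Msx1 at GD8:15 and Sox17 at GD9:00, were not past the threshold after adjustment over all probes.

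Whether most members were higher or lower in arsenic embryos rested on the scaling at GD8:15 and GD9:00, while at GD9:12 most were lower in each scaling. After quantile normalisation at GD8:15, 29 were higher and 36 lower in arsenic embryos, with a median difference of −0.03. At GD9:00, 35 were higher and 30 lower (median 0.03), and at GD9:12, 26 were higher and 39 lower (median −0.03). The medians over all tested probes were 0.00, 0.01 and −0.01. With the authors' scaling 50, 57 and 28 of 65 members were higher at the 3 stages in order, where the medians over all probes were 0.21, 0.43 and 0.02. With arrays centred on their medians 25, 18 and 23 were higher. Arsenic and control arrays did not overlap for 1 member at GD8:15 (Six5), 3 at GD9:00 (Emx2, Foxl2 and Dlx6os2) and 4 at GD9:12 (Foxl2, Sox18, Dlx3 and Dlx1). These were 1.54%, 4.62% and 6.15% of the members, against 3.84%, 9.63% and 5.01% of all tested probes.

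Among the dorsal and neural crest genes, Msx1 had the largest arsenic difference at GD8:15. Msx1 encodes a homeobox factor that responds to BMP signals in the dorsal neural tube and in neural crest. On the earliest arrays its log2 intensity was 10.81, 12.13, 10.57 and 11.63 in arsenic arrays, against 10.48, 10.50, 10.19 and 10.71 in control arrays. Of the arsenic arrays, 3 lay above every control array and the remaining one lay within the control range. The difference was 0.81 ± 0.32 (SE; 1.76-fold, adjusted p = 0.604 by limma). It was 0.25 ± 0.34 at GD9:00 and 0.38 ± 0.34 at GD9:12, and the average of the 3 stages was 0.48 ± 0.19 (adjusted p = 0.864, limma). The GD8:15 difference was 0.53 without arsenic replicate 2 and 1.06 without arsenic replicate 3, the extremes of leaving out 1 array. In the other settings the average ran from 0.16 to 0.67. Msx2, which shares much of the expression of Msx1, differed by 0.08, 0.62 and 0.13 at the 3 stages, and Msx3, a gene of the dorsal neural tube, by 0.07, 0.00 and −0.04.

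Sox10, a factor of migrating neural crest and of glia, had arsenic differences of opposite sign at GD8:15 and GD9:12. At GD8:15 its log2 intensity was 9.54, 9.80, 9.16 and 9.03 in arsenic arrays, against 10.99, 10.33, 8.77 and 10.14 in control arrays (difference −0.68 ± 0.42, adjusted p = 0.857, limma). At GD9:12 it was 10.58, 9.95, 10.04 and 8.50 in arsenic arrays, against 9.05, 8.66 and 8.41 in control arrays (difference 1.06 ± 0.45, adjusted p = 1.00, limma). The arms overlapped at both stages, because control replicate 3 was low at GD8:15 and arsenic replicate 4 was low at GD9:12. The change of its arsenic difference between stages had an adjusted p of 0.736 (F test, limma). Foxd3, another neural crest factor, differed by −0.37, −0.16 and −0.30 at the 3 stages, and Pax3, a dorsal neural tube and crest factor whose loss in mice causes neural tube defects, by 0.35, 0.36 and −0.14.

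Sox17, which directs definitive endoderm and is expressed in arterial endothelium, had the lowest adjusted p of any member in an arsenic comparison. Its log2 intensity at GD9:00 was 7.84, 8.19 and 7.80 in arsenic arrays, against 7.34, 7.97, 7.02 and 7.05 in control arrays. The difference was 0.60 ± 0.18 (adjusted p = 0.245, limma). The control values 7.02 and 7.05 lay in low runs, and without such values the difference was 0.29. Sox7 and Sox18, both endothelial, differed by 0.03 and 0.06 at GD9:00 and by 0.42 ± 0.21 and 0.34 ± 0.30 at GD9:12. The summed intensity of the endothelial markers at GD9:00, over 5 of 10 listed genes, was 1150 to 1861 in arsenic arrays and 1204 to 1537 in control arrays. Pecam1 and Cdh5 of that list were not tested.

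**Figure D2:**
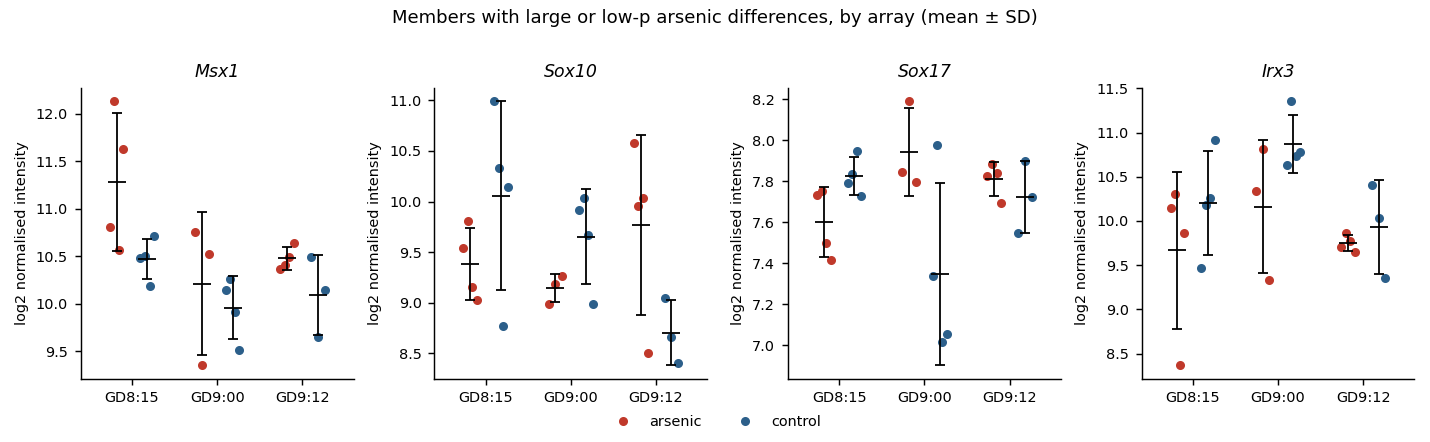
Log2 normalised intensity (y axis) of Msx1, Sox10, Sox17 and Irx3 on each array by stage (x axis), with arsenic arrays as red points left of control arrays as blue points, and bars for the group mean ± SD. The arms overlap in each panel at each stage, including Msx1 at GD8:15, where 3 of 4 arsenic arrays lie above the control arrays.

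No ventral gene passed the threshold for arsenic. After quantile normalisation, 6 of the 8 tested were lower in arsenic embryos at GD8:15 (median −0.22), 5 at GD9:00 (median −0.05) and 6 at GD9:12 (median −0.07). This list was not counted under other scalings. Of 5 tested Nkx probes, which include Nkx1-2 from outside the list, 2, 1 and 2 were higher at the 3 stages after quantile normalisation. Under the authors' scaling 5, 5 and 2 were higher, and with arrays centred on their medians 2, 3 and 1, so their direction rested on the scaling. Foxa2, the forkhead factor of floor plate, notochord and endoderm, had log2 intensities of 7.79, 7.71, 7.96 and 7.55 in arsenic arrays at GD8:15, against 7.37, 7.48, 7.63 and 7.45 in control arrays. The difference was 0.27 ± 0.13 (adjusted p = 0.672, limma), and at GD9:00 and GD9:12 it was −0.10 and −0.02. Irx3, an Iroquois factor of neural progenitors whose ventral border is set by Sonic hedgehog, had arsenic differences of −0.53, −0.71 and −0.18 at the 3 stages. At GD9:00, Irx3 read 10.34, 10.81 and 9.34 in arsenic arrays, against 10.63, 11.36, 10.74 and 10.78 in control arrays. Without arsenic replicate 3 the GD9:00 difference of Irx3 was −0.30, and without arsenic replicate 2 it was −1.04. The average difference of Irx3 was −0.48 ± 0.24 (adjusted p = 0.870, limma), and the arms overlapped at each stage. Foxa1, a relative of Foxa2 in floor plate and endoderm, had a difference of 0.61 at GD9:00, the largest upward one of this list. The other members of the ventral list were Nkx2-1, Nkx2-2, Nkx2-4, Nkx6-2 and Sox14, and the counts and medians of the list include Irx3.

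Forebrain genes included Emx2, a homeobox factor of the dorsal telencephalon. At GD9:00 it had log2 intensities of 7.22, 7.13 and 7.13 in arsenic arrays, against 7.69, 7.36, 7.28 and 7.33 in control arrays. All arsenic arrays lay below all control arrays, but the difference was small (−0.25 ± 0.09, adjusted p = 0.298, limma), and it was 0.39 under the authors' scaling, where the median of all probes was 0.43. Foxb1, a forkhead factor of the diencephalon and of neural progenitors, read 7.78, 7.97 and 8.29 in arsenic arrays at GD9:00, against 7.21, 7.97, 7.13 and 7.82 in control arrays (difference 0.48 ± 0.19, adjusted p = 0.350, limma). All the Foxb1 control values but 7.97 lay in low runs.

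The Dlx genes, homeobox factors of forebrain interneurons, olfactory placode and branchial arches, were described as a family. At GD8:15, 6 of 7 tested Dlx probes were higher in arsenic embryos, with a median difference of 0.34, and at GD9:00 6 of 7 were higher, with a median of 0.17. At GD9:12, 0 of 7 were higher, with a median of −0.18. No Dlx probe was past the threshold at any stage, and the direction at GD9:00 rested on the scaling: with the arrays centred on their medians 1 of 7 was higher (median −0.06), and with array weights 4 of 7 (median 0.01). Under the authors' scaling 7 of 7 were higher at GD9:00, with a median of 0.44 beside 0.43 for all probes. At GD8:15 between 5 and 7 were higher in these settings, and at GD9:12 0 were.

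Dlx1, a gene of early forebrain interneurons, read 8.04, 8.15, 9.34 and 8.02 in arsenic arrays at GD8:15, against 7.77, 8.05, 8.17 and 7.70 in control arrays (difference 0.46 ± 0.23, adjusted p = 0.705, limma). Only the array at 9.34 lay above all control arrays, and without it the difference was 0.15. Dlx2, Dlx3, Dlx4, Dlx5 and Dlx6os2 differed by 0.29 to 0.51 at that stage, and Dlx6 by −0.05. At GD9:12 the Dlx6 difference was −0.18 ± 0.10 (adjusted p = 1.00, limma).

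Six2 and Six5 were lower in arsenic embryos at GD8:15 without passing the threshold. Six5, a widely expressed member of the sine oculis family, read 7.99, 7.96, 7.58 and 7.58 in arsenic arrays, against 8.22, 8.16, 8.35 and 8.01 in control arrays. The Six5 arms did not overlap, and the difference was −0.41 ± 0.16 (adjusted p = 0.604, limma). Six2, a factor of head mesenchyme and of the kidney's progenitor cells, had arsenic differences of −0.60 ± 0.32, 0.42 ± 0.34 and 0.46 ± 0.34 at the 3 stages in order. The change of the Six2 difference between stages had an adjusted p of 0.779 (F test, limma). The summed intensity of mesenchyme markers at GD8:15, over 8 of 12 listed genes, was 2020 to 4536 in arsenic arrays and 4483 to 5896 in control arrays, and its part in the Six2 difference was not tested. T and Prrx1 of that list were not tested.

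The remaining members of lowest p were Irx2, Foxl2, Foxk2, Sox4 and Pax4. Irx2, an Iroquois factor of the hindbrain and placodes, differed by 0.32 ± 0.13 at GD9:00 (adjusted p = 0.336, limma). Foxl2, a factor of the ovary and eyelid, differed by −0.16 ± 0.08 at GD9:00 and −0.12 at GD9:12, with no overlap of the arms at either stage, and by −0.10 ± 0.04 on average (adjusted p = 0.864, limma). Under the authors' scaling the Foxl2 difference was 0.45 at GD9:00 and 0.19 on average. At GD9:12, Foxk2, a widely expressed forkhead gene, differed by 0.23 ± 0.13 and Sox4, a factor of differentiating neurons, by −0.17 ± 0.12. Pax4, known from pancreatic endocrine cells, differed by 0.25 ± 0.16 on average, and by 0.11 without arsenic GD9:00 replicate 3. All adjusted p-values of these members were above the threshold.

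More members passed the threshold between stages than between the arms. The slide series of an array was read from the leading digits of the code in its title, and the titles do not say what the code stands for. By this reading, all arsenic arrays of GD8:15 came from 1 slide series and all later arsenic arrays from another. In that arm a difference from GD8:15 therefore cannot be told apart from the slide series. The control arrays were spread over both of those series and others at GD8:15, lay in the later arsenic series at GD9:00, and came from that series and 1 other at GD9:12. In the first step, GD9:00 minus GD8:15, 2 of 65 members changed in arsenic embryos (3.08%, against 4.21% of all probes) and 5 in control embryos (7.69%, against 15.0%). Both arsenic calls were upward (2.40% of all probes rose and 1.81% fell), as were 3 of the control calls (8.15% rose and 6.83% fell). In the second step, GD9:12 minus GD9:00, 3 changed in arsenic embryos (4.62%, against 3.88%) and 6 in control embryos (9.23%, against 11.2%). One of the arsenic calls was upward (1.90% of all probes rose and 1.98% fell), as were 2 of the control calls (3.82% rose and 7.42% fell). Over the whole interval, GD9:12 minus GD8:15, 3 changed in arsenic embryos (4.62%, against 13.8%) and 5 in control embryos (7.69%, against 7.71%). All 3 arsenic calls were upward (7.23% of all probes rose and 6.59% fell), as were 3 of the control calls (3.77% rose and 3.95% fell). The members' share was below that of all probes in each comparison but the one between GD9:00 and GD9:12 in arsenic embryos. The stages did not overlap for 5 members in arsenic embryos in the first step (7.69%, against 13.7% of all probes) and 15 in control embryos (23.1%, against 22.2%). In the second step these were 13 of 65 in arsenic (against 18.1%) and 18 in control embryos (27.7%, against 30.1%), and over the whole interval 9 in arsenic (13.8%, against 20.4%) and 15 in control embryos (23.1%, against 31.2%). Markers of other tissues also moved with stage. Heart and muscle markers summed to 7297 to 15230, 11303 to 28571 and 4335 to 6942 in arsenic arrays at the 3 stages in order, and to 20518 to 38669, 5575 to 21898 and 4311 to 8102 in control arrays. Over the whole interval 1 of 10 fell in arsenic embryos and 5 of 10 in control embryos. Blood markers, over 5 of 9 listed genes, summed in arsenic arrays to 3774 to 27185 at GD8:15, 2020 to 3898 at GD9:00 and 17683 to 49644 at GD9:12. In control arrays they summed to 4797 to 8268 at GD8:15, 867 to 6761 at GD9:00 and 16039 to 45470 at GD9:12. Of 6 tested surface ectoderm markers, 2 fell over the whole interval in arsenic embryos and 3 in control embryos. The part of these tissues in the members' stage differences was not tested. Both steps of an arm use the same GD9:00 arrays, so a gene that is high or low there moves in opposite directions in them.

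Arsenic and control embryos were set side by side, since they share no arrays. Both arms came from the same fit with a shared estimate of spread per probe, so their calls are not independent. Every member past the threshold in either arm had the same sign of difference in the other: 5 of 5 in the first step, 6 of 6 in the second and 7 of 7 over the whole interval. Of these members, 2, 3 and 1 were called in both arms. Over all probes, the 228, 195 and 413 called in both arms in these comparisons also shared their sign. Agreement over all probes called in either arm was not counted. Over all tested members the sign was shared by 72.3% in the first step, 70.8% in the second and 64.6% over the whole interval, against 68.2%, 65.8% and 74.5% of all tested probes. None of the members passed the test of a change in the arsenic difference between stages (0 of 7830 probes did, and 503 had an unadjusted p under 0.05), so a call in 1 arm alone is not shown to be a difference between the arms.

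**Figure D3:**
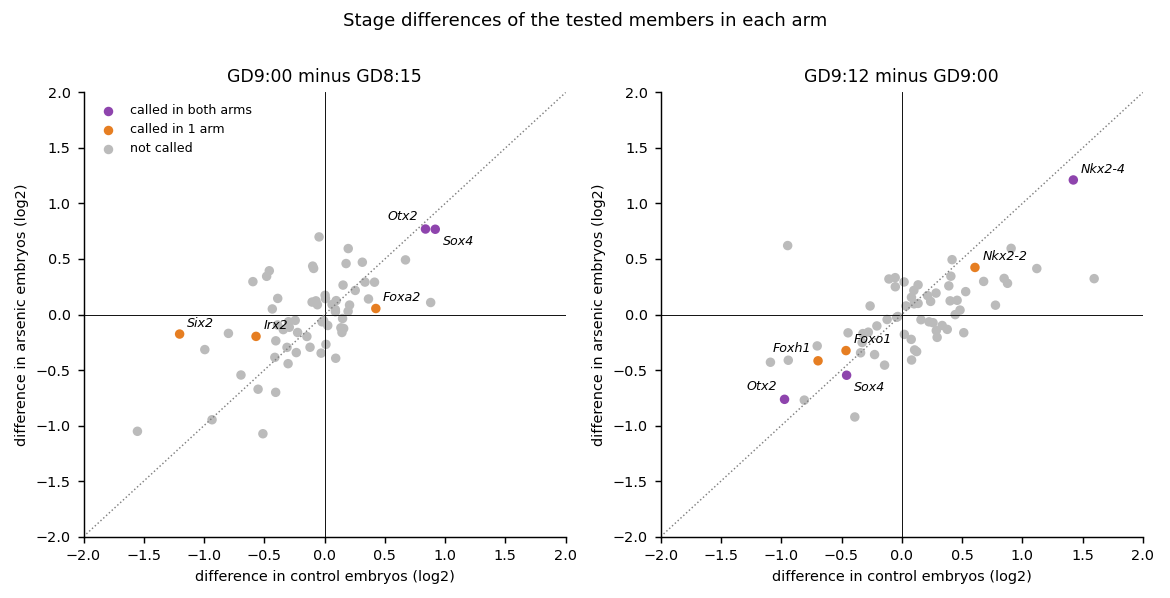
Stage differences (log2) of the 65 tested members in arsenic embryos (y axis) against control embryos (x axis), for GD9:00 minus GD8:15 and GD9:12 minus GD9:00, with the diagonal dotted. Otx2 and Sox4 were called in both arms in both panels and Nkx2-4 in the second, and each called member lies in the quadrant of shared sign.

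Otx2, which specifies forebrain and midbrain, was high at GD9:00 in both arms. In arsenic embryos its log2 intensity was 7.78, 7.59, 7.63 and 8.46 at GD8:15, then 8.79, 8.69 and 8.42 at GD9:00 and lastly 7.71, 7.97, 7.79 and 8.01 at GD9:12. In control embryos it was 7.89, 7.96, 7.95 and 8.19 at GD8:15, then 8.92, 8.93, 8.53 and 8.96 at GD9:00 and lastly 7.78, 7.90 and 7.90 at GD9:12. All GD9:00 arrays lay above all arrays of the other stages in their arm, except that arsenic replicate 4 at GD8:15 exceeded the lowest GD9:00 array.

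In the first step Otx2 rose 1.71-fold in arsenic embryos (log2 difference 0.77 ± 0.17, adjusted p = 0.0157, limma) and 1.79-fold in control embryos (0.84 ± 0.16, adjusted p = 0.00227). In the second step it fell by 0.76 ± 0.17 on the log2 scale in arsenic embryos (adjusted p = 0.0173, limma) and by 0.97 ± 0.17 in control embryos (adjusted p = 0.00159). At GD9:12 it was back at its GD8:15 level, with differences of 0.005 in arsenic and −0.14 in control embryos. Without arsenic GD9:00 replicate 1 or 2 neither Otx2 step of the arsenic arm passed, nor did they with arrays centred on their medians (adjusted p = 0.133 and 0.0932, limma). Under the authors' scaling, which also moved the median of all probes, no Otx2 step passed in either arm.

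Sox4, a SoxC factor of young neurons that is also expressed in mesenchyme, was also highest at GD9:00 in both arms. In arsenic embryos its log2 intensity was 7.26, 7.19, 7.23 and 7.42 at GD8:15, then 8.26, 7.83 and 8.03 at GD9:00 and lastly 7.50, 7.71, 7.50 and 7.26 at GD9:12. In control embryos it was 7.12, 7.22, 7.34 and 7.13 at GD8:15, then 8.15, 8.15, 8.31 and 7.86 at GD9:00 and lastly 7.75, 7.60 and 7.64 at GD9:12. The GD9:00 arrays stood above all others of their arm without overlap. The Sox4 means at GD8:15, 7.27 in arsenic and 7.20 in control embryos, lay near the 6.85 to 7.15 of Folr2. Its first-step fold values are therefore ratios to values near the floor of the array.

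Sox4 rose 1.70-fold in the first step in arsenic embryos (0.77 ± 0.12, adjusted p = 0.00149, limma) and 1.89-fold in control embryos (0.92 ± 0.11, adjusted p = 7.37e-05). In the second step Sox4 fell by 0.55 ± 0.12 in arsenic embryos (adjusted p = 0.0173, limma) and by 0.46 ± 0.12 in control embryos (adjusted p = 0.0213). The arsenic call of that step was lost without arsenic GD9:00 replicate 1 or GD9:12 replicate 4, and the control call without control GD9:00 replicate 3 or GD9:12 replicate 2 or 3. Under the authors' scaling no Sox4 step passed, and the control value of the second step was 0.22, where the median of all probes was 0.79. Over the whole interval the control difference was 0.46 ± 0.12 (adjusted p = 0.0257, limma), and the arsenic difference of 0.22 did not pass (adjusted p = 0.202). The whole-interval control call of Sox4 was lost with the filter at 50%, without control GD8:15 replicate 1, 2 or 4, and without any 1 of the control GD9:12 arrays.

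Nkx2-4, a close relative of Nkx2-1 that is expressed in the ventral forebrain, was high only at GD9:12. In arsenic embryos Nkx2-4 read 7.48, 7.24, 7.11 and 7.43 at GD8:15, then 7.11, 7.06 and 7.18 at GD9:00 and lastly 7.63, 8.72, 8.02 and 8.94 at GD9:12. In control embryos it read 7.40, 7.29, 7.36 and 7.33 at GD8:15, then 7.32, 7.21, 7.10 and 7.16 at GD9:00 and lastly 7.66, 8.96 and 9.24 at GD9:12. All GD9:12 arrays lay above all earlier arrays of their arm, and they spread over more than 1 log2 unit. The Nkx2-4 means at GD9:00, 7.12 in arsenic and 7.20 in control embryos, lay near the 6.85 to 7.15 of Folr2. Its fold values are therefore ratios to values near the floor of the array.

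In the second step Nkx2-4 rose 2.32-fold in arsenic embryos (1.21 ± 0.30, adjusted p = 0.0280, limma) and 2.68-fold in control embryos (1.42 ± 0.30, adjusted p = 0.00524). Over the whole interval it rose 2.02-fold in arsenic embryos (adjusted p = 0.0197, limma) and 2.42-fold in control embryos (adjusted p = 0.0128). The arsenic call of the second step was lost without any 1 of the 3 arsenic GD9:00 arrays or without arsenic GD9:12 replicate 2 or 4. The whole-interval calls of Nkx2-4 were lost without arsenic GD9:12 replicate 2 or 4 in arsenic embryos, and without control GD9:12 replicate 2 or 3 in control embryos.

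Nkx2-2, which marks ventral progenitors next to the floor plate, was also highest at GD9:12. In arsenic embryos it read 7.34, 7.60 and 7.16 at GD9:00 and 7.66, 7.89, 7.73 and 7.88 at GD9:12. In control embryos Nkx2-2 read 7.29, 7.34, 7.51 and 7.42 at GD9:00 and 7.50, 8.22 and 8.26 at GD9:12. The Nkx2-2 stages did not overlap in arsenic embryos and overlapped by 1 array in control embryos. The second-step difference was 0.42 ± 0.16 in arsenic embryos (adjusted p = 0.164, limma), and it passed in control embryos, which rose 1.52-fold (0.61 ± 0.16, adjusted p = 0.0182), though not without control GD9:12 replicate 2 or 3.

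**Figure D4:**
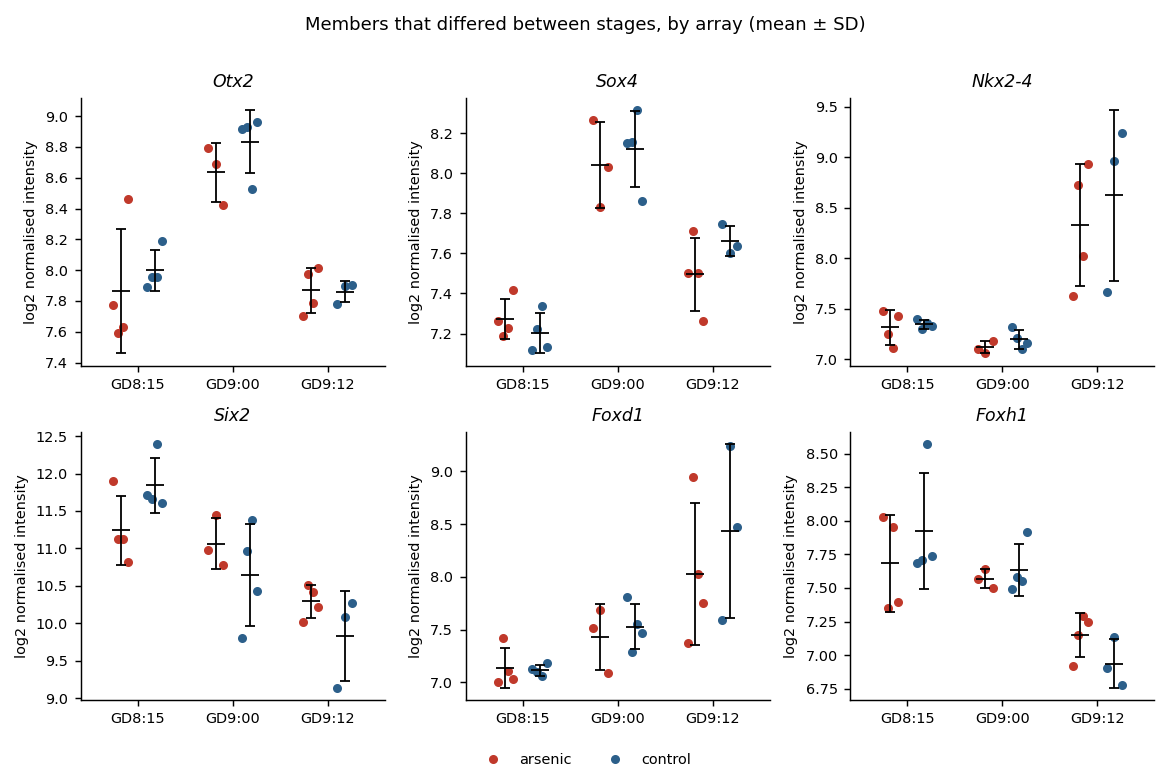
Log2 normalised intensity (y axis) of Otx2, Sox4, Nkx2-4, Six2, Foxd1 and Foxh1 on each array by stage (x axis), with arsenic arrays as red points left of control arrays as blue points, and bars for the group mean ± SD. Otx2 and Sox4 stand highest at GD9:00 in both arms, Nkx2-4 and Foxd1 at GD9:12, and Six2 and Foxh1 are lowest at GD9:12.

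Foxd1, a forkhead factor of the ventral diencephalon and temporal retina, was higher at GD9:12 than at GD8:15. In arsenic embryos Foxd1 read 7.00, 7.42, 7.11 and 7.03 at GD8:15 and 7.37, 8.95, 8.03 and 7.75 at GD9:12. In control embryos it read 7.13, 7.09, 7.06 and 7.18 at GD8:15 and 7.59, 9.24 and 8.47 at GD9:12. The 2 stages overlapped by 1 array in arsenic embryos and did not overlap in control embryos. The GD8:15 means of Foxd1, 7.14 in arsenic and 7.11 in control embryos, were at the level of Folr2 (6.85 to 7.15), near the floor of the array. The difference was 0.89 ± 0.30 in arsenic embryos (adjusted p = 0.0556, limma), and control embryos rose 2.50-fold (1.32 ± 0.32, adjusted p = 0.0166), a call that was lost without control GD9:12 replicate 2 or 3.

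Six2 fell over the interval in control embryos after quantile normalisation. In arsenic embryos its log2 intensity was 11.90, 11.13, 11.12 and 10.81 at GD8:15, then 10.97, 11.45 and 10.78 at GD9:00 and lastly 10.02, 10.52, 10.42 and 10.22 at GD9:12. In control embryos it was 11.72, 11.66, 12.39 and 11.61 at GD8:15, then 9.80, 10.97, 11.37 and 10.43 at GD9:00 and lastly 9.14, 10.08 and 10.28 at GD9:12. GD8:15 and GD9:12 did not overlap in either arm.

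Over the whole interval the Six2 difference was −0.95 ± 0.32 in arsenic embryos (adjusted p = 0.0538, limma), and Six2 fell by 2.01 ± 0.34 in control embryos, or 4.03-fold (adjusted p = 0.00158). The first step gave −0.18 in arsenic embryos (adjusted p = 0.837, limma) and a fall by 1.20 ± 0.32 in control embryos (adjusted p = 0.0172), which was lost without control GD9:00 replicate 1 and with array weights (−0.75, adjusted p = 0.0529). With arrays centred on their medians neither control call of Six2 held, at −1.32 over the whole interval (adjusted p = 0.126, limma) and −0.84 in the first step (adjusted p = 0.292). Mesenchyme markers summed to 2020 to 4536 at GD8:15 and 3475 to 4075 at GD9:12 in arsenic arrays, and to 4483 to 5896 at GD8:15 and 3090 to 3748 at GD9:12 in control arrays. Their part in the Six2 values was not tested.

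Foxh1, a forkhead partner of Smad proteins in Nodal signalling, was lowest at GD9:12. In arsenic embryos Foxh1 read 8.03, 7.35, 7.96 and 7.40 at GD8:15, then 7.57, 7.64 and 7.50 at GD9:00 and lastly 6.92, 7.15, 7.29 and 7.25 at GD9:12. In control embryos it read 7.69, 7.71, 8.57 and 7.74 at GD8:15, then 7.49, 7.58, 7.55 and 7.92 at GD9:00 and lastly 6.90, 7.13 and 6.78 at GD9:12. All GD9:12 arrays lay below all earlier arrays of their arm. The GD9:12 means of Foxh1, 7.15 in arsenic and 6.94 in control embryos, were at the level of Folr2 (6.85 to 7.15), near the floor of the array.

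Over the whole interval the Foxh1 difference was −0.53 ± 0.19 in arsenic embryos (adjusted p = 0.0682, limma), and control embryos fell by 0.99 ± 0.20, or 1.98-fold (adjusted p = 0.00577). The control fall by 0.70 ± 0.20 in the second step also passed (adjusted p = 0.0338, limma), and the arsenic difference of −0.42 did not (adjusted p = 0.319). The second-step control call of Foxh1 was lost without control GD9:00 replicate 2 or 4, without any 1 of the 3 control GD9:12 arrays, and under the authors' scaling (−0.042, adjusted p = 0.875).

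Irx2, Foxa2 and Foxo1 changed in single steps of the control arm. Irx2 fell by 0.57 ± 0.12 in the first step in control embryos (adjusted p = 0.00414, limma), where it read 7.34, 7.60, 7.24 and 7.42 at GD9:00 and 8.04, 7.93, 7.72 and 8.18 at GD8:15 without overlap. The arsenic difference of Irx2 was −0.20 (adjusted p = 0.433, limma).

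Foxa2 rose 1.34-fold in the first step in control embryos (0.43 ± 0.13, adjusted p = 0.0311, limma), with 8.05, 8.19, 7.63 and 7.76 at GD9:00 against 7.37, 7.48, 7.63 and 7.45 at GD8:15. In arsenic embryos the Foxa2 difference was 0.05 (adjusted p = 0.877, limma), and the arsenic GD8:15 arrays at 7.55 to 7.96 included 3 above all control GD8:15 arrays. Under the authors' scaling the control value was −0.06, where the median of all probes was −0.49. The Foxa2 call was also lost without control GD8:15 replicate 1, 2 or 4 or GD9:00 replicate 1 or 2, with the filter at 50%, and without the 3 arrays of lowest correlation with their group, which were chosen after the data were seen.

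Foxo1, a forkhead factor that insulin signalling restrains, fell by 0.46 ± 0.15 in the second step in control embryos (adjusted p = 0.0484, limma), and its arsenic difference was −0.33 (adjusted p = 0.269). The Foxo1 control values at GD9:00 of 7.16, 7.91 and 7.54 lay in low runs, and the call held in only 5 of the 22 fits that each left out 1 array. Its control mean at GD9:12 was 7.12, near the floor of the array.

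Six5 and Emx2 were called over the whole interval in arsenic embryos and not in control embryos. Six5 rose 1.75-fold in arsenic embryos (0.81 ± 0.16, adjusted p = 0.00271, limma), with 8.47, 8.52, 8.56 and 8.80 at GD9:12 against 7.99, 7.96, 7.58 and 7.58 at GD8:15. The Six5 control difference was 0.30 (adjusted p = 0.337, limma), with 8.44, 8.49 and 8.51 at GD9:12 against 8.22, 8.16, 8.35 and 8.01 at GD8:15. Neither arm's Six5 stages overlapped.

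Emx2 rose 1.25-fold in arsenic embryos (0.32 ± 0.08, adjusted p = 0.0169, limma), with 7.39, 7.53, 7.39 and 7.51 at GD9:12 against 7.14, 7.04, 7.11 and 7.24 at GD8:15. The Emx2 control difference was 0.21 (adjusted p = 0.176, limma). Its arsenic mean at GD8:15 was 7.13, near the floor of the array. The Emx2 call was lost without arsenic GD9:12 replicate 2 (0.29) and under the authors' scaling (0.27, adjusted p = 0.544, limma). The Six5 call held in all 22 fits that left out 1 array, at 0.74 to 0.88, and was lost without the 3 arrays of lowest correlation (0.63, adjusted p = 0.0596, limma).

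**Figure D5:**
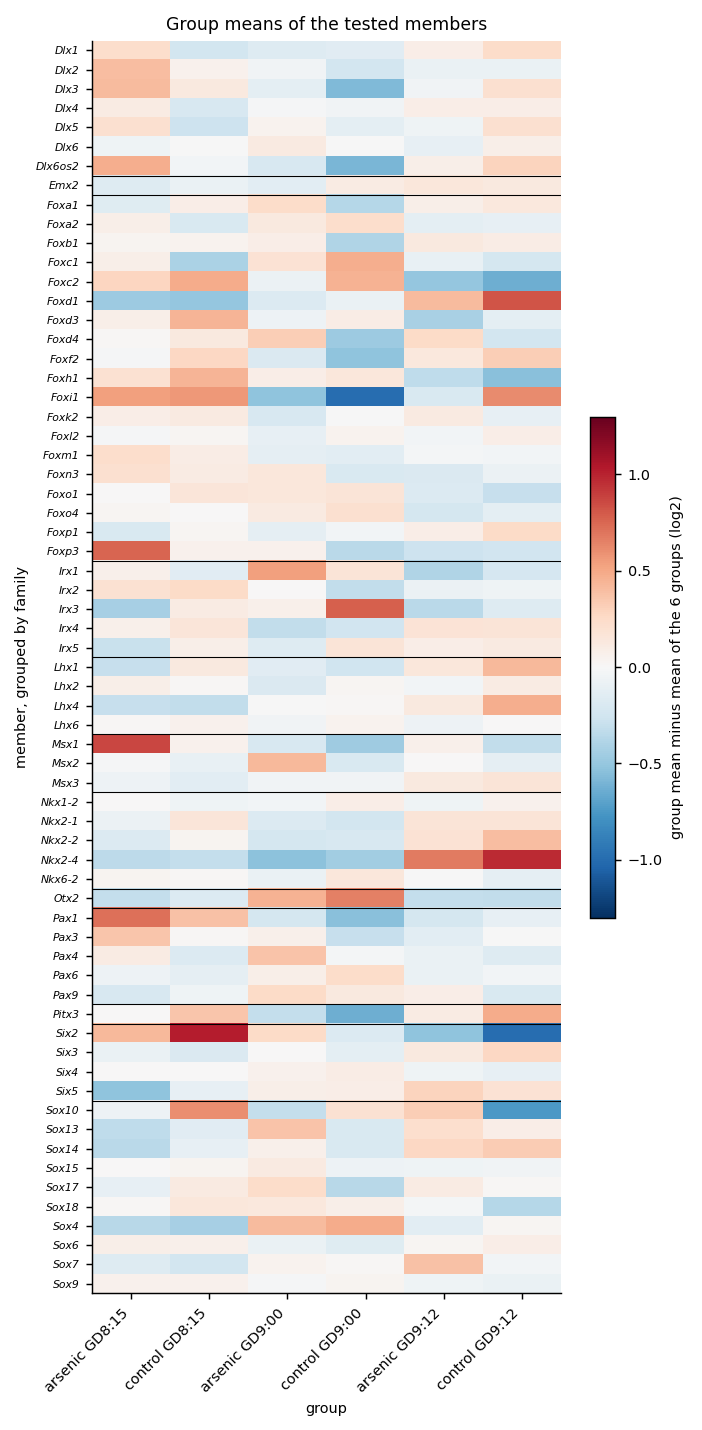
Group mean log2 intensity of each of the 65 tested members (rows, by family) in the 6 groups (columns, arsenic left of control within each stage), as the difference from the member's mean over the groups (colour, log2, red higher). Otx2 and Sox4 are red at GD9:00, Nkx2-4 and Foxd1 at GD9:12 and Six2 at GD8:15, in both arms.

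Stage calls of the role lists below are pooled over the stage comparisons unless a step is named. The share of all probes called in at least 1 of these comparisons was not counted. The pooled calls therefore have no matching background and are not read as results about a list. Over all probes, 4.21%, 3.88% and 13.8% were called in arsenic embryos in the first step, the second step and the whole interval. In control embryos these shares were 15.0%, 11.2% and 7.71%. By role, the 10 tested forebrain and eye members were Otx2, Emx2, Foxd1, Dlx1, Dlx2, Dlx5, Nkx2-1 and also Six3, Lhx2 and Pax6, which act in eye and forebrain. Their arsenic differences ran from −0.23 to 0.47 at GD8:15, from −0.25 to 0.20 at GD9:00 and from −0.41 to 0.02 at GD9:12, with 0 calls. Six3, which represses Wnt signalling in the anterior forebrain, had group means between 11.68 and 12.14 and was not called (differences of 0.10, 0.13 and −0.15 between the arms, at adjusted p of 0.995, 0.901 and 1.00, limma). The 3 tested neural progenitor members, Sox9, Pax6 and Foxb1, had 0 calls in the stage steps of either arm. Their arsenic differences ran from −0.17 to 0.48 over the 3 stages.

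The 4 tested midbrain and hindbrain members were Otx2, Foxa2, Sox14 and Lhx1. Apart from Otx2 and Foxa2, they had 0 calls. The 8 tested members of the ventral list, Irx3 included, had 2 calls in the second control step, Nkx2-4 and Nkx2-2. Both were upward (3.82% of all probes rose in that step). The list's median difference in the second step was 0.46 in control and 0.14 in arsenic embryos, against 0.03 and −0.02 for all probes. Foxa1, Nkx2-1, Nkx6-2 and Irx3 were not called in any comparison.

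None of the 10 tested dorsal and neural crest members was called in a stage step of either arm. Their median first-step difference was −0.20 in arsenic and −0.31 in control embryos, against −0.02 for all probes in both arms. The largest in arsenic embryos was Msx1, at −1.07 ± 0.34 in arsenic embryos (adjusted p = 0.0866, limma) and −0.51 ± 0.32 in control embryos (adjusted p = 0.287). Sox10 gave −1.35 ± 0.45 over the whole interval in control embryos (adjusted p = 0.0757, limma) and 0.38 in arsenic embryos.

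The 11 tested placode and pituitary members were Six4, Pitx3, Dlx3, Dlx5, Dlx6, Foxi1, Lhx4, Irx1, Irx2, Irx4 and Irx5, and of these only Irx2 was called. Foxi1 varied widely within groups, with means of 10.59 ± 0.87 in arsenic and 10.62 ± 0.55 in control embryos at GD8:15 (SD, n = 4 each). At GD9:00 the Foxi1 means were 9.54 ± 0.69 in arsenic (n = 3) and 9.07 ± 0.21 in control embryos (n = 4). At GD9:12 they were 9.86 ± 1.09 in arsenic (n = 4) and 10.67 ± 1.43 in control embryos (n = 3). Its first step was −1.05 ± 0.62 in arsenic (adjusted p = 0.391, limma) and −1.55 ± 0.57 in control embryos (adjusted p = 0.0746). Pitx3, known from lens and midbrain dopamine neurons, gave 0.41 in arsenic and 1.12 ± 0.49 in control embryos in the second step (adjusted p = 0.788 and 0.150, limma).

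The 8 tested members of the neuronal differentiation list were Lhx1, Lhx2, Lhx4, Lhx6, Dlx1, Dlx2, Sox4 and Foxp1, and only Sox4 was called. Their arsenic differences at GD9:12 ran from −0.35 to −0.01, with a median of −0.16 and adjusted p-values of 1.00 (limma). Lhx4, a LIM factor of pituitary and motor neurons, gave 0.42 in arsenic and 0.79 ± 0.28 in control embryos over the whole interval (adjusted p = 0.295 and 0.0972, limma).

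Of the 14 tested mesenchyme, endothelium and endoderm members, Foxa2, Foxh1 and Six2 were called in control embryos and none in arsenic embryos. The others were Foxa1, Foxc1, Foxc2, Foxf2, Foxl2, Sox7, Sox17, Sox18, Pax1, Pax9 and Irx4. Pax1, a factor of sclerotome and pharyngeal pouches, gave −0.95 ± 0.37 in arsenic (adjusted p = 0.169, limma) and −0.93 ± 0.34 in control embryos in the first step (adjusted p = 0.0692). Foxc2, a factor of head and paraxial mesenchyme, gave −0.78 ± 0.47 in arsenic and −1.12 ± 0.51 in control embryos over the whole interval (adjusted p = 0.278 and 0.202, limma).

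The 11 tested widely expressed members were Foxo1, Foxo4, Foxk2, Foxm1, Foxn3, Foxp3, Sox4, Sox6, Sox13, Sox15 and Six5, of which Foxo1, Sox4 and Six5 were called. Foxp3, best known from regulatory T cells, had the largest arsenic difference of this list at GD8:15 (0.70 ± 0.45, adjusted p = 0.866, limma). Dlx4, Dlx6os2, Foxd4, Nkx1-2 and Pax4 belonged to none of the lists and were not called. Foxd4 had the largest member difference at GD9:00 (0.78 ± 0.54, adjusted p = 0.571, limma), and 3 of its values lay in low runs, 1 of them in a control array at GD9:00.

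The 15 members below the filter were not tested: Emx1, Foxa3, Foxf1, Foxj1, Foxj2, Foxn1, Foxp2, Foxp4, Foxq1, Gbx2, Lhx9, Nkx2-6, Pax8, Pitx1 and Sox8. Gbx2, which sets the border of midbrain and hindbrain opposite Otx2, had group means between 7.16 and 7.34 and was among them. A single placeholder value among the members belonged to Foxf1.

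The signalling and partner genes of neural tube patterning were taken from a list of 51, of which 40 were on the array and 33 were tested. None passed the threshold between arsenic and control embryos at any stage. In the first step, 2 rose in arsenic embryos, the motor neuron factor Isl1 and the growth factor gene Fgf15, and 5 rose and 1 fell in control embryos (4.21% of all probes were called in arsenic and 15.0% in control embryos). In the second step, 4 rose and 1 fell in arsenic embryos, and 6 rose and 4 fell in control embryos (3.88% of all probes were called in arsenic and 11.2% in control embryos). Zic1, a dorsal neural tube factor, had second-step differences of 2.57 in arsenic and 2.57 in control embryos, the midbrain and hindbrain factor En2 1.80 and 1.47, and Fgf18 1.71 and 2.23. The dorsal signal Wnt3a rose by 1.05 in control embryos. The other partner genes called in that control step were Isl1, Fgf15, Gli2, Wnt4, Bmp7 and Fgfr1. The differences of the 33 tested ran from −2.02 to 2.57 there. In arsenic embryos the other second-step calls were Fgf15 and Sox11. Fgf15 rose in the first step and fell in the second in both arms, as Otx2 and Sox4 did, and all 3 rest on the same GD9:00 arrays.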

How the data were processed

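Per the labels, amplified RNA was hybridised to one-colour CodeLink arrays, and the labels do not say that the arrays of a group came from separate dams, so p-values measure only the spread between these arrays. The authors deposited 1 intensity per probe and array on a linear scale, and the method of their scaling is not given in the sources used here. Placeholder values up to 2 were set missing. The intensities were quantile-normalised and taken to log2, since the deposited values differ in mean by stage. The tests took probes measured on 2 or more arrays in every group whose mean lay above the lowest 25%, which left 7830 of 10500. limma 3.58.1 in R 4.3.3 fitted the 6 group means over 22 arrays, with Benjamini-Hochberg adjustment over all tested probes, and was tested on simulated data. Genes were named through GEO's platform annotation, from probes with 1 symbol. Low runs are places where the median deviation from the stage median, over 51 neighbouring brighter probes, was under -0.5 log2 units. Members with the lowest p in each arsenic test, members called in a stage difference, and further members by role were described. The rule for the members reads symbols alone, but the rule and the lists were chosen with earlier results of these data known. Precision is limited by the number of arrays. The alternatives were other scalings, filters, variance models, array weights, masked low runs, slide series as a block, and leaving out arrays.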

Additional observations from a re-analysis of the deposited data

Results flagged for a closer look

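In groups of 4 arrays, 5 of 92 group and member pairs tested held an array far from the others by Dixon's criterion, a number close to the 1 in 20 that chance gives. Dlx1 read 9.34 on arsenic GD8:15 replicate 3, against 8.02 to 8.15 on the other arrays of the group. Foxh1 and Six2 stood out on the same array, control GD8:15 replicate 3, at 8.57 and 12.39, against 7.69 to 7.74 and 11.61 to 11.72 on the others. Foxk2 read 8.03 on control GD8:15 replicate 1, against 7.84 on the others. Otx2 read 8.53 on control GD9:00 replicate 3, against 8.92 to 8.96 on the others.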

How the results depend on the processing

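The 48 values were recomputed in 1559 checks, of which 1469 were labelled the same, 79 lost the threshold, 3 gained it and 8 changed sign. The same label meant a kept direction and side of the threshold, except for differences of group medians. Those have no p-value, and there it meant a shift smaller than the largest SD of the groups compared. A change of sign was not counted in those checks. Sign changes under the authors' scaling were Emx2 at GD9:00 (0.39) and on average (0.21), Foxl2 at GD9:00 (0.45) and on average (0.19), and, in control embryos, Foxa2 in the first step (−0.061) and Sox4 (0.22) and Foxo1 (0.16) in the second. With arrays centred on their medians, Pax4 on average was −0.034. Under the authors' scaling the median of all probes itself was −0.49 in the first control step and 0.79 in the second, and 0.43 for arsenic at GD9:00.

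The count for arsenic at GD9:00 was 1 with array weights (93 probes higher and 17 lower of all 7830), 1 without the 3 arrays of lowest correlation (chosen after seeing the data), and 0 to 1 leaving out 1 array, the 1 being Sox17 without control GD9:00 replicate 2. The other arsenic counts stayed 0 in every setting run, also within the slide series that held both arms. In control embryos the first-step count of 5 was 19 under the authors' scaling (0 up, 19 down, and all probes 168 up, 2576 down), 12 with weights (5 up, 7 down, and all probes 929 up, 1043 down) and 4 to 8 leaving out 1 array. The second-step count of 6 was 45 (45 up, 0 down, and all probes 5509 up, 103 down), 13 with centred arrays (8 up, 5 down, and all probes 745 up, 619 down), 18 with weights (10 up, 8 down, and all probes 771 up, 1030 down) and 2 to 8 leaving out 1 array, with 2 without control GD9:12 replicate 2 or 3. The whole-interval count of 5 was 14 (12 up, 2 down, and all probes 1323 up, 98 down), 11 centred (9 up, 2 down, and all probes 726 up, 248 down), 17 with weights (10 up, 7 down, and all probes 978 up, 1056 down), 3 with the filter at 50%, and 2 to 6 leaving out 1 array, with 2 without control GD9:12 replicate 2 or 3.

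In arsenic embryos the first-step count of 2 was 1 under the authors' scaling (all probes 19 up, 132 down) and 1 centred (all probes 33 up, 29 down). It was 5 with weights (all probes 456 up, 431 down) and 1 to 4 leaving out 1 array. That count was 1 without arsenic GD9:00 replicate 1 or 2 and 4 without replicate 3. The second-step count of 3 was 16 under the authors' scaling (16 up, 0 down, and all probes 1805 up, 11 down). It was 7 centred (all probes 665 up, 100 down) and 10 with weights (all probes 622 up, 812 down). Leaving out 1 array gave 0 to 4, with 0 without arsenic GD9:00 replicate 1. The whole-interval count of 3 was 7 under the authors' scaling (all probes 1255 up, 134 down) and 8 centred (all probes 1157 up, 434 down). With weights it was 8 (all probes 787 up, 880 down). It was 5 with low runs masked, 6 with trended, robust variance and 6 with the slide series as a block. Without the 3 arrays of lowest correlation it was 1. Leaving out 1 array gave 1 to 6, with 1 without arsenic GD9:12 replicate 2. Counts over all probes are given here for the scalings and the array weights, not for the other settings. The member counts are not read as results about the members. Where no construction shows it, the cause was not tested. No paired analysis was possible because the replicate numbers were given in accession order and tie no samples together.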
